A study of Mus musculus with 36 samples.

Results

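Whole blood of mice exposed to 0.75 Gy of neutrons alone was compared with that of mice exposed to 3 Gy of x-rays. The comparison used 12 of the 36 arrays of the series, chosen by their titles alone: 6 arrays whose titles give neutron 100% at day 7, and 6 whose titles give x-ray 3 Gy at day 7. Each array held peripheral blood RNA of 1 male C57BL/6 mouse, 8 to 10 weeks old when irradiated and killed 7 days later. The study asked whether a neutron component leaves its own gene expression signature and included both exposures for comparison. The 6 sham-irradiated controls, and 6 mice given 3 Gy of a mixed field of which 25% was neutrons, are used below for context. Their levels, and calls against each, are given beside the main comparison. Mice given 3 Gy of mixed fields with 5% or 15% neutrons enter where scan session is described. The neutron source also delivered some photons, so the neutron field was not pure and x-rays were not the whole of the rest of the mixed field. Beam and total dose changed together between the groups and cannot be told apart.

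Scan session, read from the files, also separated both groups. All 6 neutron arrays were scanned in session 3, while 5 x-ray arrays were scanned in session 1 and 1, x-ray replicate 6, in session 4. Session and exposure therefore cannot be told apart between both groups, and session values are given where they touch a result. The 25% mixed field was scanned in session 3 together with neutron alone, so the difference between these 2 groups lies within 1 session. Of 39429 probes, 16485 to 19059 were well above background on the neutron arrays and 16602 to 19358 on the x-ray arrays, against 19527 to 20790 in controls (two-sided exact permutation test of neutron against x-rays, p = 0.0736, 6 arrays a group). Pairs of neutron arrays correlated at 0.957 to 0.983 over genes and pairs of x-ray arrays at 0.863 to 0.973. The median SD of a gene within a group was 0.34 on the log2 scale for neutron alone and 0.61 for x-rays.

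Blood formation is among the most radiosensitive processes of the body. Mature B lymphocytes die readily after irradiation and are replaced slowly, since their precursors in the marrow are lost as well. Red-cell precursors recover quickly and send reticulocytes, young red cells that still hold RNA, into the blood while marrow is being rebuilt. Neutrons deposit their energy along dense tracks of recoil particles, which makes a given dose more damaging than the same dose of x-rays.

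Of 15085 genes tested, 1943 differed between neutron alone and x-rays (12.9%, limma, p below 0.001 and Benjamini-Hochberg adjusted p below 0.05). These are referred to as called. Of them, 981 (6.5% of the genes tested) were higher after neutron alone and 962 (6.38%) were lower. The largest adjusted p among them was 0.00776 and the median size of their difference was 1.36 on the log2 scale. The median difference of all genes was 0.09. Without neutron replicate 5 or neutron replicate 6, 652 and 653 genes were higher. The split between higher and lower depended on the scaling. With arrays scaled to the spike-in probes, RNA added in equal amounts, 128 genes were higher and 2576 lower, and the median of all genes was -0.56. In the normalized values deposited by the authors, 621 were higher and 1237 lower, with a median of -0.18. The spike-in level over the array median was itself 0.65 higher after neutron alone (8.70 to 9.24 against 8.004 to 8.88, two-sided exact permutation test over 6 arrays a group, p = 4.33e-03, adjusted over 3 array measures 0.0130). Levels below are log2 of the processed signal over the median of all probes on that array, and every difference is neutron alone minus x-rays on that scale unless another is named. A level of 1 probe says nothing of the abundance of its gene against another gene.

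B-cell transcripts made the most uniform group. With the array median as the scale, all 25 tested B-cell genes lay above x-rays after neutron alone, with a median difference of 2.78, and 19 of them (76%) were called higher, against 6.5% of all genes. The largest differences were those of Ebf1, the transcription factor that commits progenitors to the B lineage (4.19), Vpreb3, a chaperone of immature immunoglobulin (3.97), Fcmr, the receptor for IgM (3.91), Cd79a, the signalling chain of the B-cell receptor (3.78), Spib, an Ets factor of mature B cells (3.76), and Fcrla, a B-cell Fc receptor-like protein (3.69). With spike-in scaling 11 were called higher and the median was 2.12. In whole blood, fewer B cells and less RNA per B cell cannot be told apart. Blood counts of these animals were not analysed here.

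The Vpreb3 level ran from 3.04 to 4.03 over the x-ray arrays with a median of 3.45, and from 7.03 to 7.91 with a median of 7.31 over the neutron arrays. The groups did not overlap, and the difference of 3.97 (SE 0.23) is a fold of 15.6 (limma, adjusted p = 9.02e-07). Controls lay at 7.62 to 8.18 and the 25% mixed field at 3.21 to 4.16, so the x-ray and mixed-field ranges overlapped, as did those of neutron alone and controls. Cd79a ran from 2.53 through a median of 3.86 to 6.51 after x-rays and from 7.61 through 7.76 to 8.35 after neutron alone (adjusted p = 2.22e-04). The highest x-ray value of Cd79a belonged to replicate 1, which also held the highest x-ray value of Ebf1, at 2.25 where the next x-ray array lay at -0.15. Spib ran from 1.74 through 2.79 to 5.30 after x-rays and from 6.39 through 6.72 to 7.14 after neutron alone (difference 3.76, SE 0.48, adjusted p = 1.46e-04). Again no array of one group reached the other.

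Among the other B-cell genes, Cd79b, the partner chain of Cd79a, differed by 3.30 (SE 0.51), and Ms4a1, which encodes CD20, by 3.25. Fcrl1, an Fc receptor-like protein of B cells, was not well above background on any x-ray array. It was at least 7.65-fold higher after neutron alone, taking the lowest signal well above background on each x-ray array as the bound (adjusted p = 3.78e-05). Ebf1 was well above background on 1 of 6 x-ray arrays and on 6 of 6 neutron arrays. The 6 members that were not called were Blk (2.18), Pax5 (1.56), Cd22 (1.48), Cr2 (1.04), Cd37 (0.92) and Btk (0.87). The brightest Cd79a probe is placed by the array's annotation on chromosome 12 of mm9, while RefSeq has the gene on chromosome 7. A second Cd79a probe differed by 2.22 in the same direction.

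X-ray replicate 1 had the highest summed B-cell level of its group, 4.44 as a mean over the list, where the other 5 x-ray arrays lay between 1.79 and 3.03 and the 6 neutron arrays between 5.28 and 5.62. Without it, 21 B-cell genes were called higher and the median difference was 3.19. Against controls, 25 of the 25 genes were called lower after x-rays, with a median of -4.38. Of all genes 29.8% were called against controls after x-rays, 16.9% as lower. After neutron alone 22 were called lower, with a median of -1.53, where 36.6% of all genes were called and 20.5% as lower. Both of these comparisons use the same 6 control arrays. Neutron alone lay above the 25% mixed field, scanned in the same session, for 22 called B-cell genes (median 2.68), where 11.4% of all genes were called, 4.02% as higher. All 6 arrays of that field held much liver RNA, with a mean level of Alb, Ttr, Apoa1 and Apoa2 of 7.97 to 12.57 against 0.19 to 5.25 after neutron alone, and the part of this in the differences from that field was not tested. All 19 genes called against x-rays had their 25% mean on the x-ray side of the midpoint between both groups and their control mean beyond the neutron mean.

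**Figure D1:**
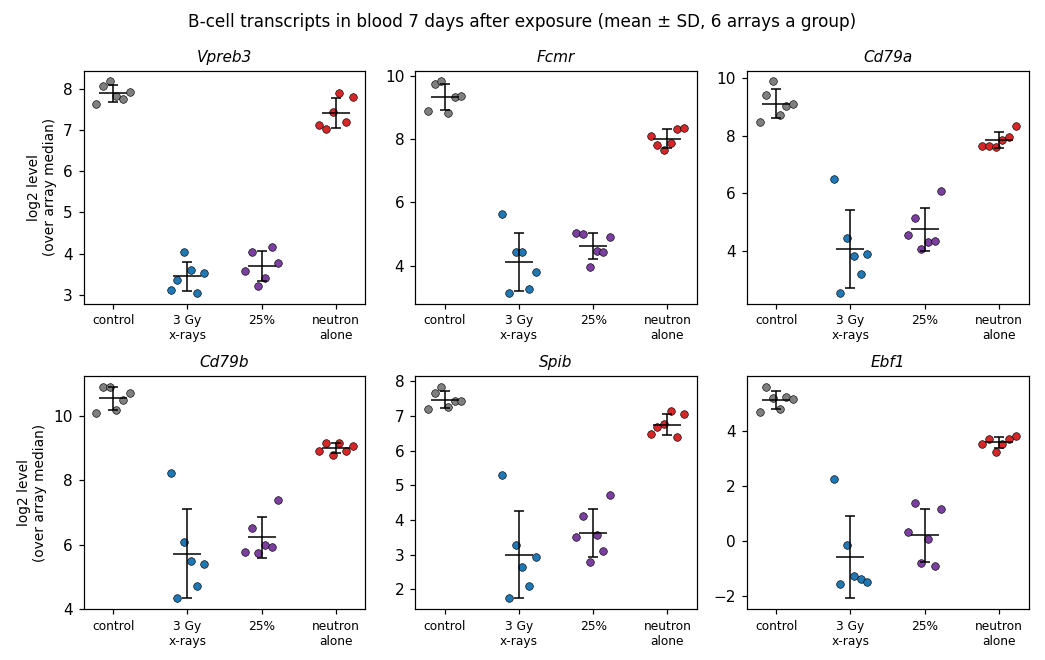
Log2 level over the array median (y axis) of 6 B-cell transcripts on each array of the controls, 3 Gy x-rays, the 25% mixed field and neutron alone (x axis), with the mean and SD of 6 arrays. In every panel the neutron mean lies between the means of controls and x-rays, and x-ray replicate 1 is the highest x-ray point of Cd79a at 6.51.

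The octamer ATTTGCAT, read on either strand as ATTTGCAT or ATGCAAAT, is the letter pattern that Oct factors and their B-cell co-activator recognise in immunoglobulin promoters. It stood in the 250 bases before the gene start of Vpreb3 and Blnk, the adaptor of B-cell receptor signalling, out of 19 B-cell genes that the promoter table holds (10.5%), and in 1.81% of 27025 genes of the table. The match starts 45 bases before the start of Vpreb3 and 130 bases before that of Blnk. Both sequences are from RefSeq, build GRCm38.p6, at chr10:75948050-75948299, plus strand and chr19:40994222-40994471, minus strand, with the octamer in capitals. They show where these letters lie in the members that hold them.
Vpreb3: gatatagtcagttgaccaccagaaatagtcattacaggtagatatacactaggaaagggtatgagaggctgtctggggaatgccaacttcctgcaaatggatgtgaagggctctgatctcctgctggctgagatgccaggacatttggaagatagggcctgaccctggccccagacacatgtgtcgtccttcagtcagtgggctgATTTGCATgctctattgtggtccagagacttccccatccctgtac
Blnk: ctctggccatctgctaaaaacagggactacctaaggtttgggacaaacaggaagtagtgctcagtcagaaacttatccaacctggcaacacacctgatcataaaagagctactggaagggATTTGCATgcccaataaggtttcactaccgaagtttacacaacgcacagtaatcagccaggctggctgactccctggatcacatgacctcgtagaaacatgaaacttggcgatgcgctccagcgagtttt

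Genes of antigen presentation were also higher. Of 10 class II genes, 4 were called higher (40%, background 6.5%), and all 10 had positive differences with a median of 1.33. The count was 3 without x-ray replicate 2 or any 1 of the 6 neutron arrays, and 5 without x-ray replicate 1. It was 2 without x-ray replicates 2 and 4. H2-DMb2, a chain of the peptide-loading factor, ran from -1.16 through -0.03 to 3.26 after x-rays and from 2.97 through 3.10 to 3.48 after neutron alone (difference 2.81, SE 0.57). The highest x-ray array reached into the neutron range. H2-Oa and H2-Ob encode the loading inhibitor that B cells use, and differed by 2.51 and 2.40. H2-Ab1, a chain of the classical class II molecule, differed by 2.06 (adjusted p = 0.00534) and passed in 5 of 12 fits with an array left out. H2-Aa, its partner chain, and Cd74, the invariant chain, had differences of 0.68 and 1.03 that did not pass. Chst3 and Il4i1, among the 10 largest increases and on neither list, had the same order of groups. Chst3, a sulfotransferase of chondroitin chains, ran from 0.72 through 1.27 to 2.79 after x-rays and from 4.76 through 5.15 to 5.46 after neutron alone (difference 3.70, SE 0.30, adjusted p = 2.48e-05). Its control arrays lay at 6.23 to 7.35 and its 25% arrays at 0.72 to 1.60. Il4i1, a secreted amino acid oxidase of antigen-presenting cells, differed by 3.26 (SE 0.28), with controls at 6.78 to 7.59.

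Other leukocyte lists differed less. Of 27 T-cell genes, 3 (11.1%, background 6.5%) were called higher: Ccr7, the lymph node homing receptor (1.67), Lef1 (1.37) and Tcf7 (1.26), both transcription factors of naive T cells. The T-cell list had a median of 0.48, which turned to -0.18 with spike-in scaling, and a second Tcf7 probe differed by 0.10. The genes of the T-cell receptor complex were not among them, with Cd3e at 0.53 and Cd3g at 0.15. Leaving out neutron replicate 1, 5 or 6 left 1 called T-cell gene. Of 21 monocyte genes, 2 were called higher (9.52%, background 6.5%). They were Cx3cr1, the fractalkine receptor of patrolling monocytes, and Irf8, a monocyte and B-cell factor (1.72 and 1.45). The list median of 0.37 turned to -0.26 with spike-in scaling. Without x-ray replicate 1 or 2, or neutron replicate 2, 3, 5 or 6, 1 of these remained called. In limma, 0 of 18 NK and cytotoxic genes passed (1 higher and 3 lower at an unadjusted p below 0.05), and 0 of 22 platelet genes (3 and 3). The summed neutrophil level overlapped between the groups, at 5.12 to 6.20 after neutron alone and 5.03 to 6.01 after x-rays.

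**Figure D2:**
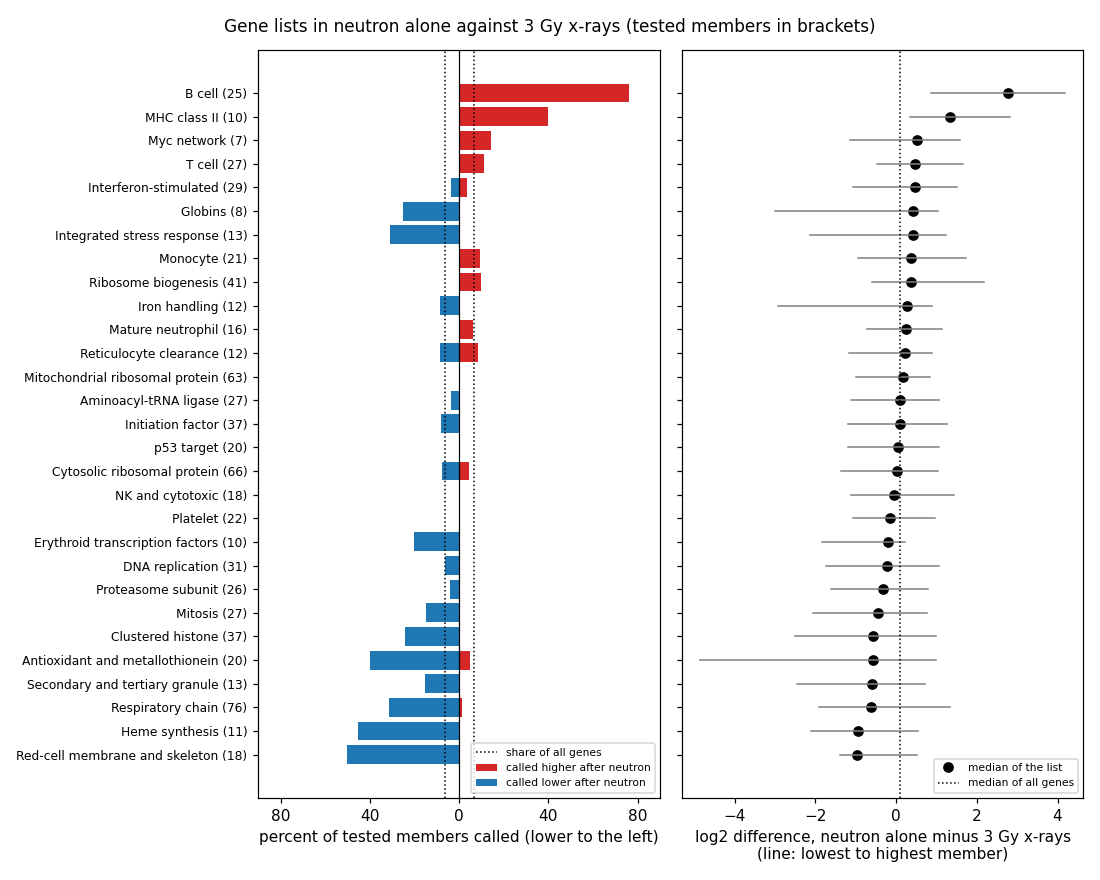
Left, the percent of tested members called higher or lower after neutron alone (x axis) for each gene list (y axis, tested members in brackets), with the shares of all genes as dotted lines. Right, the log2 difference of the median member, with a line from the lowest to the highest member. B-cell and class II genes lead at the top, and red-cell membrane, heme synthesis and respiratory chain genes lie at the bottom.

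Red-cell membrane genes were lower after neutron alone. Of 18 genes of the red-cell membrane and its skeleton, 9 (50%, background 6.38%) were called lower, with a median difference of -0.97. Slc4a1, the band 3 anion exchanger, differed by -1.09, and Rhd, the Rh blood group protein, by -1.38. Rhd ran from 8.32 through 9.18 to 9.47 after x-rays and from 7.13 through 7.64 to 8.07 after neutron alone, with no overlap, and from 4.94 to 6.07 in controls (SE 0.25, adjusted p = 0.00173). All 9 genes had their control mean below the neutron mean: 17 of the 18 genes were called higher than controls after x-rays (background 12.9%) and 17 after neutron alone (background 16.1%), with medians of 2.78 and 1.86, both from the same control arrays. The count of 9 depended on single arrays. Leaving out x-ray replicate 3 or neutron replicate 1 made it 4, and leaving out x-ray replicate 6 made it 5. Against the 25% mixed field, 2 of 18 were called lower (median -0.62, background 7.36%).

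The letters AGATAA, or TTATCT on the other strand, are a GATA factor's core. They stood in the 250 bases before the start of Icam4, Kel, Rhd and Trim10, which is 4 of the 11 red-cell membrane genes in the promoter table (36.4%), and in 11.4% of all its genes. All 4 were called lower. The sequences of Rhd and of Icam4, an erythroid adhesion molecule, stand here with the match in capitals (RefSeq, GRCm38.p6, chr4:134864286-134864535, plus strand and chr9:21029182-21029431, plus strand).
Rhd: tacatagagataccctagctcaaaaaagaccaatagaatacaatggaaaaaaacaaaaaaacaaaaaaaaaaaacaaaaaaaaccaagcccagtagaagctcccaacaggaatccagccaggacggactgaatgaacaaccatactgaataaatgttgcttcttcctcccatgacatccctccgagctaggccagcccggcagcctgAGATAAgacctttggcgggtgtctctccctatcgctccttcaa
Icam4: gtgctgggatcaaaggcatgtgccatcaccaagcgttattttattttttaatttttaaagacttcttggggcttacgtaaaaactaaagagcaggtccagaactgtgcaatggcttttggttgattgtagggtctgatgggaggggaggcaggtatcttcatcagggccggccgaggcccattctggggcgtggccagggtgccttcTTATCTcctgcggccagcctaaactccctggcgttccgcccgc

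Heme synthesis genes differed by step. Of 11 genes, 5 were called lower (45.5%, background 6.38%) with a list median of -0.94. Among them were Alad (-2.11), Urod (-1.29) and Uros (-0.94), enzymes of the cytosolic steps, and Abcb10, a mitochondrial transporter that stabilises iron import (-1.09). Alad, which joins 2 molecules of aminolevulinate, ran from 4.78 through 6.03 to 6.51 after x-rays and from 3.55 through 3.64 to 3.90 after neutron alone. Its neutron range overlapped that of controls, 3.64 to 4.57. Alas2, the first and rate-limiting enzyme of red-cell precursors, was saturated on 6 of 6 neutron arrays and 1 of 6 x-ray arrays, so its difference of 0.53 has no upper bound here. Fech, the last enzyme, differed by 0.20 and was not called. Alad passed with each of the 12 arrays left out in turn, Urod in 5 of 12. Only 2 heme genes were called when any of x-ray replicates 3, 4 and 6 or neutron replicates 1, 3 and 5 was left out. A second Alad probe, above background on 4 of 12 arrays, differed by -0.74.

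The palindrome CACGTG, an E-box read by basic helix-loop-helix factors, stood in the 250 bases before a start of Alad, Urod and Uros, 3 of 8 heme genes in the promoter table (37.5%), and in 6.86% of all its genes. The first Alad promoter of the table and that of Urod are shown with the match in capitals (RefSeq, GRCm38.p6, chr4:62520064-62520313, minus strand and chr4:116994414-116994663, minus strand), for the 2 called enzymes with a match before every start listed.
Alad: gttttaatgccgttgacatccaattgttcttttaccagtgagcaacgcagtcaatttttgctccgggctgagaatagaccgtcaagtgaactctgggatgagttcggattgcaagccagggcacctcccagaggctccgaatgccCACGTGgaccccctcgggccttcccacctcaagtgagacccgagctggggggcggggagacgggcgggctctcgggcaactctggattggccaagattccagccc
Urod: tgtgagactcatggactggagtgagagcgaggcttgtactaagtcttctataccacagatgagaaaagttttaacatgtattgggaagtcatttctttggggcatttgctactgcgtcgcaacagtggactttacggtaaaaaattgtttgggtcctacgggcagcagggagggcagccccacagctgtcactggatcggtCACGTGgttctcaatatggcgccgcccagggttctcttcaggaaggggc

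Of 10 erythroid regulators, 2 were called lower (20%, background 6.38%). In limma, 4 were lower and 0 higher at an unadjusted p below 0.05. The list median was -0.20, and -0.94 with spike-in scaling. The called genes were Zfpm1, the GATA1 cofactor FOG1, and Klf1, which drives adult globin and membrane genes (-1.83 and -1.15). Gata1 itself differed by -0.10 (adjusted p = 0.715). Zfpm1 ran from 9.13 through 9.81 to 10.08 after x-rays and from 7.73 through 7.83 to 8.02 after neutron alone, above the 6.56 to 7.13 of controls. Klf1 passed in 2 of 12 fits with an array left out. Among globins, Hbb-bh1, an embryonic beta-like chain, ran from 2.04 through 3.69 to 5.18 after x-rays and from 0.36 through 0.77 to 1.43 after neutron alone (difference -2.99, SE 0.45, adjusted p = 4.41e-04). It was well above background on 6 of 6 x-ray and 3 of 6 neutron arrays. Hba-x, the embryonic alpha-like chain, was called but was not well above background on any of the 12 arrays. The adult chains had differences of 1.03 for Hbb-b1 and 0.15 for Hba-a1, neither called, in RNA that had been depleted of globin before labelling. Hba-a1 was saturated on all 12 arrays.

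Many subunits of the mitochondrial respiratory chain, which makes ATP from oxygen, were lower. Of 76 genes, 24 were called lower (background 6.38%) and 1 higher, Atp5sl, an assembly factor that shares its name with the synthase (1.34). The list median was -0.62. By complex, 11 of 31 genes of complex I were called lower, 0 of 4 of complex II, 3 of 9 of complex III, 5 of 15 of complex IV, and 5 of 17 named for the ATP synthase. Medians were -0.74, 0.08, -0.78, -0.26 and -0.63 in that order. Genes were grouped by name, so the 17 include Atp5sl and a pseudogene entry, Atp5c1-ps. Leaving out x-ray replicate 5 gave 38 lower genes in place of 24, and leaving out x-ray replicate 3 or neutron replicate 1 gave 19.

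Cox6b2, a testis-type subunit of complex IV, had the largest difference, -1.91 (SE 0.18, adjusted p = 3.78e-05). It ran from 9.92 to 10.75 after x-rays, from 8.27 to 8.64 after neutron alone and from 6.24 to 7.05 in controls. Ndufb8, of complex I, ran from 7.95 through 9.18 to 9.70 after x-rays and from 7.37 through 7.41 to 7.47 after neutron alone (difference -1.68, SE 0.26). Here the neutron arrays lay within a narrow band just below the 7.52 to 7.78 of controls. Cox4i1, a core-flanking subunit of complex IV, differed by -1.62 and also lay below controls (9.02 to 9.46 against 9.49 to 9.88). All 24 genes had their 25% mean on the x-ray side of the midpoint. Against the 25% field, 42 of 76 were called lower after neutron alone (median -1.06), where 7.36% of all genes were. All 6 arrays of that field held much liver RNA, with a mean level of 4 liver transcripts of 7.97 to 12.57 against 0.19 to 5.25. The part of this in these differences was not tested. For 5 of the 25 called genes the probe lies, by the array's annotation, on a chromosome other than that of the gene in RefSeq, Atp5o and Atp5c1 among them, and whether those probes read a processed copy was not tested. The 63 mitochondrial ribosomal protein genes had a median of 0.17, and limma called 0 of them (10 higher and 6 lower at an unadjusted p below 0.05).

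The single largest fall was that of Gstt1, a theta-class glutathione transferase of the liver and red cells. It ran from 7.87 through 8.36 to 9.001 after x-rays and from 3.13 through 3.65 to 3.74 after neutron alone. The difference of -4.86 (SE 0.22) is a fold of 29.0 (adjusted p = 5.50e-08), and it passed under every one of the 33 alternatives tried. Controls ran from 2.70 through 3.84 to 6.51 and the 25% mixed field from 8.54 to 9.74. Neutron arrays thus lay within the control range and mixed-field arrays in and above the x-ray range. Mgst3, a membrane-bound glutathione transferase, differed by -2.50 in the same direction, with 8.61 to 9.69 after x-rays, 6.10 to 6.99 after neutron alone and 5.00 to 5.93 in controls. A second Mgst3 probe differed by -1.40.

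Of 20 antioxidant and metallothionein genes, 8 were called lower, Gstt1 among them (background 6.38%). Catalase was the 1 called higher (Cat, 0.98, background 6.5%), and it passed in 1 of 12 fits with an array left out. Mt2, a zinc and copper binding metallothionein, ran from 5.20 through 6.75 to 6.87 after x-rays and from 3.54 through 3.95 to 4.03 after neutron alone (difference -2.51, SE 0.30, adjusted p = 1.00e-04). Mt1, its neighbour on chromosome 8, differed by -1.86, and its groups overlapped at 5.58 to 7.51 and 4.23 to 6.15. All arrays of both groups lay above controls for Mt2, whose controls were at 1.52 to 1.90. For Mt1, the neutron range overlapped the 1.85 to 4.53 of controls. The others were Gpx4, which reduces lipid peroxides (-1.56), Nqo1, a quinone reductase (-1.56), Prdx1 (-1.42) and Prdx3 (-0.97), peroxiredoxins, and Sod2, the mitochondrial superoxide dismutase (-0.86). Glutathione synthesis genes were not among them, with Gclc at -0.01 and Gclm at 0.57.

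The letters TGCNCNC, or GNGNGCA on the other strand with N for any base, are a looser form of the core of the metal response element. They occurred 5 times in the 250 bases before Mt2 and 1 time before Mt1. These short letters are common: 47.2% of all genes in the promoter table hold at least 1. The metallothionein sequences are shown with each match in capitals (RefSeq, GRCm38.p6, chr8:94172368-94172617, plus strand and chr8:94178839-94179088, plus strand), since these 2 neighbours differ in matches to this pattern within these 250 bases. Not every match need be a metal response element.
Mt2: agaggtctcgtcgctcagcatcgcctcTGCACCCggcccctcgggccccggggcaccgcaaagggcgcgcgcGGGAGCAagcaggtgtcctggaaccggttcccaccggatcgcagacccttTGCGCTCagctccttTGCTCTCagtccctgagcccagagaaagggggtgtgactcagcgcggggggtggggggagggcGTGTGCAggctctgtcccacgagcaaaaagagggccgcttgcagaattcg
Mt1: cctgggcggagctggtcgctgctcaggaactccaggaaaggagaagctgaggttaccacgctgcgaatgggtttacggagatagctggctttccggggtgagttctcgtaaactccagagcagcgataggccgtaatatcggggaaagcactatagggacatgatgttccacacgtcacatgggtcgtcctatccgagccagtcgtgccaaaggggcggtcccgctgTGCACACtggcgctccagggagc

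**Figure D3:**
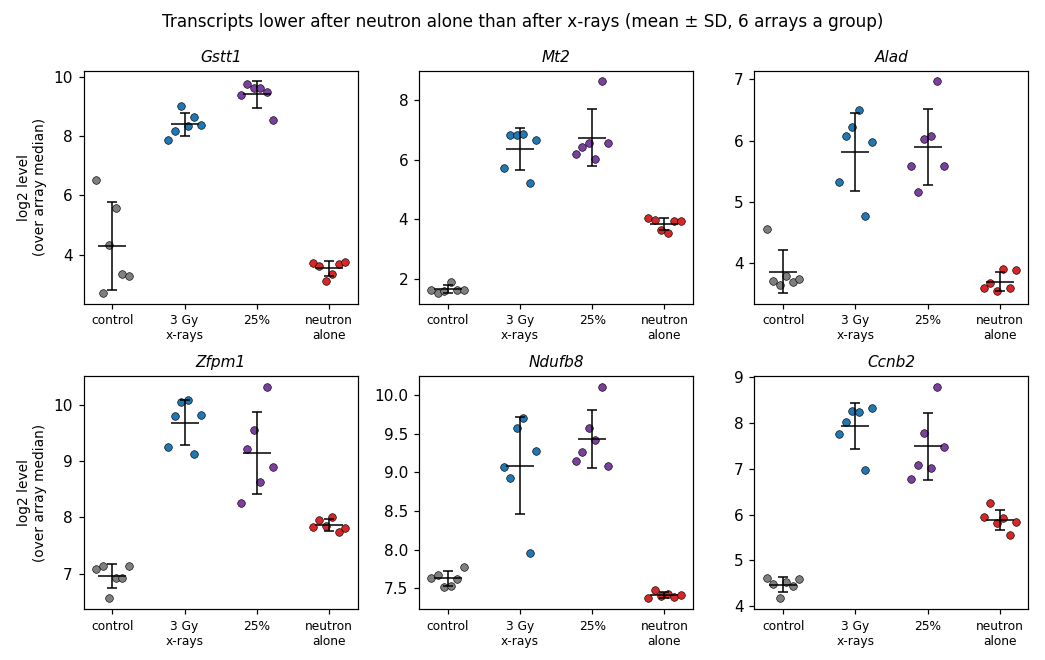
Log2 level over the array median (y axis) of 6 transcripts that were lower after neutron alone, on each array of the controls, 3 Gy x-rays, the 25% mixed field and neutron alone (x axis), with the mean and SD of 6 arrays. Gstt1 is at 3.13 to 3.74 on the neutron arrays and at 7.87 to 9.001 on the x-ray arrays.

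Genes of the integrated stress response, by which cells answer amino acid or heme shortage, were divided. Of 13, 4 were called lower (30.8%, background 6.38%). They were Trib3, a pseudokinase target of ATF4 (-2.12), the mitochondrial serine enzyme Shmt2 (-1.50), asparagine synthetase Asns (-1.36) and the factor Atf5 (-1.14). Trib3 ran from 3.30 through 4.19 to 4.87 after x-rays and from 1.66 through 2.16 to 2.35 after neutron alone, where controls lay at 1.69 to 2.39. The list median was 0.42, with Atf4 itself at 0.42 and Chac1, another ATF4 target, at 1.24, neither called. The list median turned to -0.51 with spike-in scaling and to -0.35 in the authors' normalized values.

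Of 27 mitotic genes, 4 were called lower (14.8%, background 6.38%), with a list median of -0.45. Ccnb2, a mitotic cyclin, ran from 6.98 through 8.14 to 8.33 after x-rays, from 5.56 through 5.88 to 6.24 after neutron alone and from 4.17 to 4.60 in controls (difference -2.05, adjusted p = 1.00e-04). The others were Top2a, a topoisomerase (-1.17), the spindle factor Tpx2 (-1.31), and Nuf2, a kinetochore protein that was at least 2.72-fold lower, since no neutron array held it well above background. A second Tpx2 probe differed by 1.57, in the opposite direction. The count of 4 ran from 2, with any of 8 single arrays left out, x-ray replicates 1, 4 and 6 among them, to 7 without neutron replicate 2. Ccna2, Ube2c and Fzr1, a cyclin and 2 parts of the anaphase-promoting machinery that the study singles out, had differences of -0.37, 0.22 and -0.43 and were not called. Of 31 DNA replication genes, 2 were called lower, near the share of all genes (6.45%, background 6.38%). Among them was Gins3, a part of the replicative helicase (-0.96).

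Of 37 clustered histone genes, 9 were called lower (24.3%, background 6.38%) with a list median of -0.58. Leaving out x-ray replicate 5 gave 14. Hist1h3f ran from 3.39 through 4.56 to 5.26 after x-rays, from 1.31 through 2.02 to 2.54 after neutron alone and from 1.58 to 3.34 in controls (difference -2.52, adjusted p = 1.33e-04). Its 25% arrays lay at 1.56 to 3.58, near the neutron range. Of the 9, 3 had their 25% mean on the x-ray side, against 24 of 24 respiratory chain genes. The difference between these shares was not tested. Histone genes are near-identical in sequence, so a probe may read several of them.

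Secondary and tertiary neutrophil granules are made in the marrow before neutrophils are released. Of 13 genes of these granules, 2 were called lower (15.4%, background 6.38%). They were Ngp and Camp, both antimicrobial granule proteins (-2.47 and -2.24). Camp ran from 4.85 through 6.40 to 8.15 after x-rays and from 3.81 through 4.01 to 4.30 after neutron alone, above the 2.62 to 3.48 of controls. Neither passed without x-ray replicate 5. Ltf, lactoferrin, had a difference of -2.09 that was not called (adjusted p = 0.0241), and Mmp9, a late granule protease, had 0.71.

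Cytosolic ribosomal protein genes and initiation factors, which the study discusses at length as differences from controls, showed no common direction on the array-median scale. Of 66 ribosomal protein genes, 3 were called higher and 5 lower, with a list median of 0.03, which is 12.1% called against 12.9% of all genes. Rps19 ran from 9.75 through 9.95 to 10.30 after x-rays and from 8.68 through 8.80 to 9.34 after neutron alone (difference -1.08, SE 0.19, adjusted p = 0.00120), below controls at 9.502 to 10.32. Rps2 (-1.38), Rps25 (-1.19), Rps6 (-1.06) and Rpl29 (-0.88) were also called lower, and Rps27 (1.02), Rplp1 (0.87) and Rpl35a (0.75) higher. For 42 of the 66 genes, 6 of the called ones among them, the probe used lies on a chromosome other than the gene's own in RefSeq, and whether it reads processed copies was not tested. Other probes of Rps6 differed by 0.54 and 0.19, another of Rps25 by 0.51 and another of Rpl35a by 0.02. Rps6 turned to 0.12 with scaling to the 75th percentile. Without x-ray replicate 5, 6 were called higher and 11 lower, and without x-ray replicate 2 or 4 or neutron replicate 1, 5 or 6, 0 were called higher. The list median was -0.63 with spike-in scaling, with 16 called lower. In the authors' normalized values it was -0.45, with 12 lower and 1 higher. Under quantile normalization it was -0.29, with 9 lower and 3 higher. Of 37 initiation factor genes, Eif2d (-1.19), Eif3i (-1.11) and Eif4g1 (-0.89) were called lower (8.11%, background 6.38%) and the list median was 0.09. The count was 5 without x-ray replicate 5 and 1 without any of 10 other arrays. Eif3i passed in 1 of 12 fits with an array left out and Eif4g1 in 2. Against the same controls, 11 ribosomal protein genes were called lower and 21 higher after neutron alone, and 1 and 14 after x-rays. Of initiation factors, 15 were lower and 6 higher after neutron alone, and 8 and 6 after x-rays. Of all genes, 20.5% were called lower and 16.1% higher than controls after neutron alone, and 16.9% and 12.9% after x-rays. Myc, which the study also names, had a difference of 0.17 (adjusted p = 0.774).

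Another kind of gene was higher after neutron alone than after x-rays but was not called against the 25% mixed field. Dcaf12l2, an X-linked WD repeat protein, ran from 2.46 through 2.73 to 3.83 after x-rays and from 5.52 through 6.74 to 7.71 after neutron alone (difference 3.83, SE 0.36), with controls at 2.64 to 3.21 and the 25% field at 3.72 to 7.53. Golt1a, a Golgi transport protein, differed by 3.57, Syt10, a synaptotagmin, by 3.31, and Ubtf, the factor that opens ribosomal RNA genes, by 2.19. A second Ubtf probe differed by -0.30, and a second Dcaf12l2 probe by 1.93. For Dcaf12l2, Golt1a and Syt10, neutron alone was not called against the 25% mixed field (differences 0.69, 0.67 and 1.72, limma adjusted p = 0.374, 0.458 and 0.148).

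Session 4 held 1 array each of the controls, x-rays, the 5% and the 15% mixed field, on 1 slide. Blcap, a membrane protein chosen here after its values were seen, lay at 3.49 and 3.28 on the session 4 arrays of the 5% and 15% fields and at 4.87 to 8.66 on their 10 arrays of session 2. Its levels after x-rays were 2.43 to 3.67 and after neutron alone 5.08 to 7.28. Over the 496 higher genes whose 25% mean was on the neutron side, the session 4 arrays of both mixed fields lay below those of session 2 by a median of -1.25 (98.6% of genes below 0), against -0.12 (55.1%) over all genes. Over the 485 higher genes whose 25% mean was on the x-ray side, the median was -0.92 (80.8%). The 19 called B-cell genes were among them, but the mean level of the B-cell list was not below its session 2 range. It was 2.96 on the session 4 array of the 5% field and 3.64 on that of the 15% field. Session 2 arrays of these fields ran from 2.66 to 3.41 and from 1.88 to 3.41. Over the 342 and 620 lower genes on the neutron and the x-ray side, medians were 0.52 and -0.06. For those 496 genes, the same mixed fields thus read lower on the session 4 slide than on those of session 2, with 1 session 4 array per field. These arrays also had the most probes well above background of their fields. The 5% array had 21367, against at most 19652 in session 2, and the 15% array 21235, against at most 18688. What part this had was not tested. The x-ray array of session 4 lay above those of session 1 by a median of 0.30 over the 496 genes and 0.11 over all genes. The part of session in the difference between neutron alone and x-rays was not tested, since no neutron array shared a session with x-rays. One 25% array of session 3, replicate 3, was also low, with Blcap at 3.59.

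**Figure D4:**
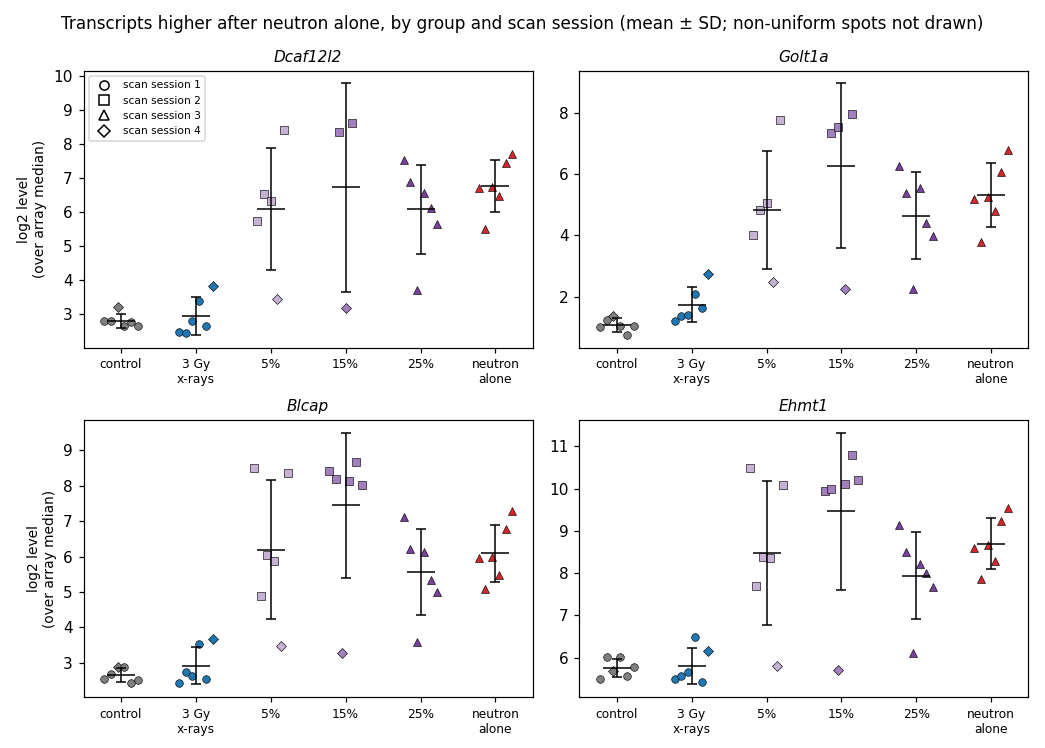
Log2 level over the array median (y axis) of 4 transcripts on the arrays of all 6 groups (x axis), with the scan session as the symbol and the mean and SD of each group. The session 4 arrays of the 5% and 15% mixed fields lie with the controls and x-rays, away from the session 2 arrays of the same fields.

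Over all called genes, the 25% mixed field divided about evenly for the genes higher after neutron alone, with 496 on the neutron side and 485 on the x-ray side. For the 962 lower genes, 620 (64.4%) had the 25% mean on the x-ray side. The control mean was on the neutron side for 556 higher genes (56.7%) and 688 lower genes (71.5%). It lay above both exposures for 363 of the higher genes and below both for 406 of the lower ones.

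Liver transcripts were present in varying amounts in all groups. Albumin, Alb, ran from -2.08 through 6.05 to 12.52 after x-rays, from -1.96 through 0.02 to 6.82 after neutron alone and from -2.16 to 11.32 in controls, and lay at 9.98 to 14.31 in the 25% mixed field. It was well above background on 5 of 6 x-ray and 2 of 6 neutron arrays. The mean level of Alb, Ttr, Apoa1 and Apoa2 ran from 0.00379 to 10.79 after x-rays and from 0.19 to 5.25 after neutron alone, and x-ray replicates 2 (10.79), 4 (9.81) and 5 (5.52) stood above every neutron array. Of 5 liver and fat markers tested, limma called 0, and 0 had an unadjusted p below 0.05.

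Among the 10 largest falls of genes well above background on all 12 arrays, Agmat, which cleaves agmatine, and Tmem205 and Reep6, both membrane proteins, had their highest x-ray values on replicate 2 and the next on replicate 4, the x-ray arrays with the most Alb (12.52 and 11.74). Agmat ran from 2.61 through 3.45 to 6.30 after x-rays and from 1.13 through 1.28 to 1.80 after neutron alone (difference -2.73, SE 0.53), and controls reached 5.50. Without x-ray replicates 2 and 4, the differences of Agmat, Tmem205 and Reep6 were -1.84, -1.68 and -2.22, all still called, against -2.73, -2.46 and -2.80 with all arrays. That of Gstt1 was -4.93, as large as with them. Among controls, the array with the most Alb (11.32) also had the highest Gstt1 (6.51), while the x-ray array with the least Alb (-2.08) had Gstt1 at 7.87. The part of liver RNA in the differences of these genes was not tested. With replicates 2 and 4 left out, 1185 genes were called, 511 higher and 674 lower. There, 15 B-cell genes were called higher, and 1 red-cell membrane gene, 2 heme genes and 15 respiratory chain genes lower, with medians of 2.44, -0.95, -0.81 and -0.57 for those lists. Leaving out x-ray replicate 5 as well, both choices made after seeing the data, 1509 genes were called, 620 higher and 889 lower, with 13 B-cell genes higher and 4 red-cell membrane, 3 heme and 29 respiratory chain genes lower. Medians of those lists were 1.96, -0.86, -0.87 and -0.68 there, and the difference of Gstt1 was -4.88. Agmat and Tmem205 differed by -1.71 and -1.70 (adjusted p = 1.05e-03 and 1.02e-03) and Reep6 by -2.49.

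**Figure D5:**
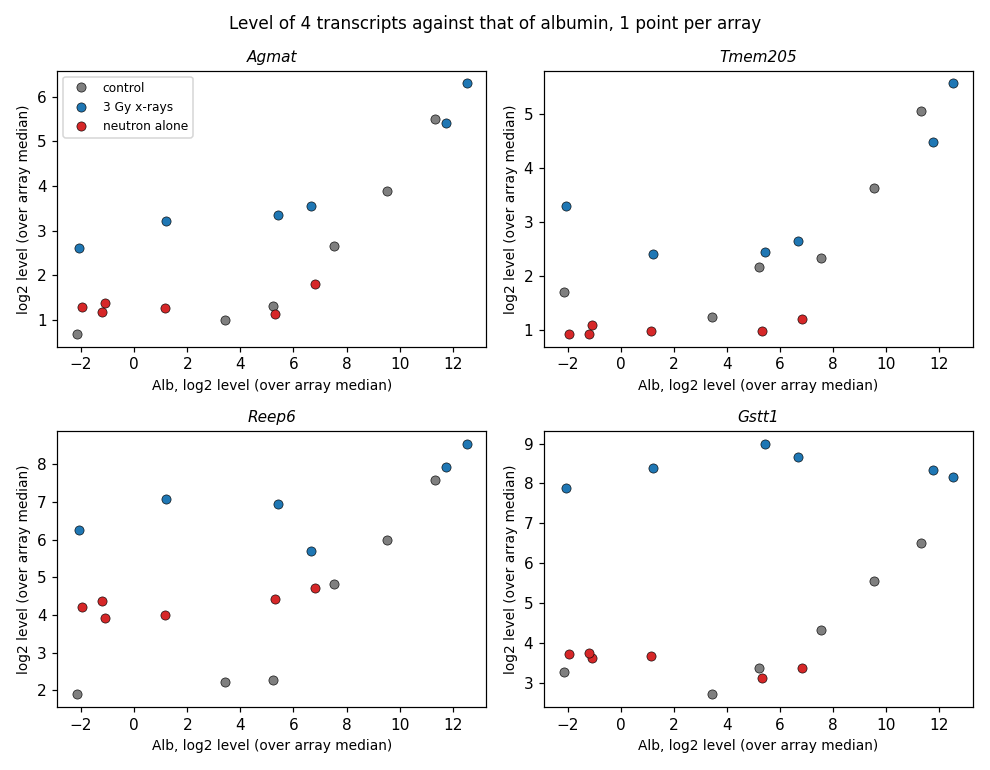
Log2 level of Agmat, Tmem205, Reep6 and Gstt1 (y axes) against that of Alb (x axis), both over the array median, with 1 point per array of the controls, x-rays and neutron alone. The x-ray points of Gstt1 lie between 7.87 and 9.001.

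Of the remaining large falls, Apol10a, an apolipoprotein L, ran from 7.60 through 8.64 to 9.45 after x-rays and from 5.33 through 5.64 to 7.05 after neutron alone (difference -2.80, adjusted p = 1.23e-04), above controls at 3.28 to 4.30. Nacad, related to a ribosome-associated chaperone, ran from 4.31 through 5.49 to 5.73 and from 2.19 through 2.43 to 2.81 (difference -2.76), with controls at -1.38 to 0.18. Both thus stood well above controls in both groups, and higher after x-rays. Tpm2, a tropomyosin, ran from 6.84 through 7.23 to 8.88 after x-rays and from 4.62 through 5.24 to 5.54 after neutron alone, where controls lay at 4.86 to 5.87. For Tpm2, as for Gstt1, Alad and Trib3, the neutron range overlapped that of the controls, and the lowest x-ray array lay above the highest control.

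The remaining lists held few called genes. Of 41 ribosome biogenesis genes, Ubtf, Npm1 (1.52), Ltv1 (1.37) and Mybbp1a (1.16) were called higher (9.76%, background 6.5%), and 87.8% had positive differences. The count fell to 2 with x-ray replicate 2 or 3 or neutron replicate 1, 3, 5 or 6 left out. Npm1 and Ltv1 each passed in 4 of 12 such fits, and 4 other Npm1 probes differed by -0.02, 0.14, 0.35 and 1.45. The 4 called genes had their 25% mean on the neutron side, and the list median of 0.36 turned to -0.23 with spike-in scaling. Of 29 interferon-stimulated genes, Ifi27l2a was called higher (1.51) and Herc6 lower (-1.07). That is 6.90% called, against 12.9% of all genes, and Herc6 passed in 2 of 12 such fits. Of 10 progenitor genes, Myb, a factor of immature blood cells, was called higher (1.74) and Runx1, another, lower (-1.16). Their share was 20%, against 12.9%. Max, the partner of Myc, was the 1 called gene of 7 Myc network genes (1.57, 14.3%, background 6.5%). Of 16 mature neutrophil genes, 1 was called higher (6.25%, background 6.5%). Psmd2 of the proteasome (-1.61, 1 of 26) and Aars of the aminoacyl-tRNA ligases (-1.13, 1 of 27) were called lower, as was 1 of 12 iron handling genes. Leaving out x-ray replicate 5 gave 7 proteasome genes, 3 ligases and 2 iron handling genes, leaving out x-ray replicate 1 gave 2 ligases, and Aars passed in 4 of 12 such fits. The proteasome and ligase shares of 3.85% and 3.70% were below the background of 6.38%, and the iron handling share was 8.33%. Of 12 genes of reticulocyte clearance, Map1lc3b was called higher (0.88) and Xpo7 lower (-1.17), which is 16.7% called against 12.9% of all genes. Map1lc3b passed in 2 and Xpo7 in 4 of 12 fits with an array left out. Limma called 0 of 20 p53 target genes, with 3 higher and 4 lower at an unadjusted p below 0.05. It also called 0 of 6 muscle genes (1 higher and 2 lower at that level), 0 of 4 endothelial genes (0 and 1), 0 of 3 primary granule genes and 0 of 2 epidermal genes, of which 0 passed at that level.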

How the data were processed

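Peripheral blood RNA, depleted of globin RNA, was measured on Agilent 4x44K one-colour arrays with 1 mouse per array. The authors deposited scanner files of Agilent Feature Extraction 12.0.2, whose processed signal is a background-corrected intensity, and log2 values in a series table that, per the methods, was median normalized and filtered. From the deposited intensity, log2 of the processed signal minus each array's median over all probes was computed here. Non-uniform spots were left out. Probes above background on over 75% of the 36 arrays, and at least 1.5-fold from their median on at least 20%, were kept, which left 17963 of 39429. The brightest probe stood for each of 15085 genes. Filters, scaling and thresholds were modelled on the study's methods but did not give the gene set of the authors' deposited table.

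The 12 arrays were fitted with limma 3.58.1 (R 4.3.3), using moderated statistics and Benjamini-Hochberg adjustment in place of the authors' random variance test. A gene was called at p below 0.001 and adjusted p below 0.05. The median SE was 0.292 on the log2 scale. Comparisons with controls and with the 25% mixed field were fitted likewise, and single array measures were compared by exact permutation. Groups came from the sample titles. The 6 arrays a group limit the precision, and nothing beyond 1 mouse per array describes the replicates. The script was tested on simulated data.

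Named genes were the 10 largest called rises and falls among symbols well above background on all 12 arrays, the called members with the largest differences and the defining genes of each list, and genes the paper names. The members and lists were chosen with earlier results of these data known. Probe positions are those of the array design (mm9). Promoters were read from RefSeq (GRCm38.p6) with Python 3.11.15, and figures drawn with matplotlib 3.10.9. Of 15085 genes, 11308 matched a RefSeq symbol. Alternatives covered scaling, background correction, filters, probe choice, the deposited log2 values, blocks, weights, the threshold and each array left out. Some genes the rule names are not reported here.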

Additional observations from a re-analysis of the deposited data

Results flagged for a closer look

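In 3 of 51 x-ray and 4 of 51 neutron groups of 6 arrays, the gap between the most distant array and its nearest neighbour, divided by the range of the group, passed Dixon's limit for 6 samples. Chance alone passes it in about 1 in 20 groups. After x-rays, replicate 1 was the highest array for Chst3 (ratio 0.636) and for Ebf1 (0.627), and replicate 5 the lowest for Mt1 (0.896), at 5.58 where the next array lay at 7.30. After neutron alone, replicate 2 was the highest for Apol10a (0.740), Nuf2 (0.870) and Tpx2 (0.718), and replicate 4 for Agmat (0.630).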

How the results depend on the processing

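The number of called genes, 1943 with 981 higher and 962 lower, stayed within 1.5 times under scaling to the 75th percentile, quantile normalization and the slide as a random block. With spike-in scaling, chosen after seeing the data, 128 were higher and 2576 lower (4.73% higher). With normexp background correction 1 gene was called, 0 higher and 1 lower (0% higher). There the 5th percentile of the corrected log2 signal differed between arrays, from 5.85 to 10.29. Leaving out the 40 spots over 50 below background, also chosen after seeing the data, gave 5.85 to 6.06, and 1023 called, 361 of them higher (35.3%). The deposited table gave 621 higher (33.4%). The session as a random block gave 4445 (2531 higher, 1914 lower), array weights 3086 (1683 higher) and the adjusted p alone 4240 (2386 higher, 1854 lower). Without x-ray replicates 2 and 4, chosen after seeing the data, 1185 were called and 511 were higher, and without replicate 5 as well 620 were higher. The causes of the other shifts were not tested. With 1 array left out, called genes ran from 1392 to 2305, higher from 652 to 1288, lower from 717 to 1173, and the percent higher from 44.4 to 57.4.

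Of the 6 same-numbered pairs of both groups, 2 had deviations that correlated over 0.1, replicates 1 (0.46) and 4 (0.26). Both correlated best with their own number. The other pairs ran from -0.12 to 0.09. The mean was 0.12 over same-numbered pairs and -0.02 over the others. With the replicate number as a block, 1337 genes were called, 638 of them lower.

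Of 140 called genes described, 100 stayed called with each array left out. Of the 115 tested under every setting, 53 stayed called under all but normexp and 1, Gstt1, under all. Differences that changed sign were those of Rps6 (0.12 under the 75th percentile, 0.19 without the fold filter, 0.083 under the second normexp), Rps25 (0.51 without the fold filter, 0.36 under the second normexp), Rpl35a (-0.63 with spike-in scaling, -0.81 and -0.11 under the 2 normexp settings), Rps27 (-0.10 under normexp), Tpx2 and Rplp1 as the mean of their probes (0.13 and -0.10), and Rplp1, Tcf7 and Uros in the deposited table (-1.20, -0.17 and 0.47). Probes under background on a group's arrays give bounds alone.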
